A study of Mus musculus with 12 samples.

Results

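Mouse CD4+ T cells cultured toward the Th2 fate were compared with CD4+ T cells cultured toward the Th17 fate. The members are the 4 libraries labelled Th2 and the 4 labelled Th17, 8 of the 12 libraries of the series, chosen by their labels alone. Each culture has 1 library from wild-type (WT) cells at day 2.5, 1 from WT cells at day 3.5, and 1 at each of those days from NFATc1/ΔS cells, whose transcription factor NFATc1 cannot be joined to the small protein SUMO. Every value quoted for a culture follows that order: WT day 2.5, WT day 3.5, NFATc1/ΔS day 2.5, NFATc1/ΔS day 3.5.

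All cells were isolated as CD4+ T cells from spleen and lymph nodes of C57BL/6 mice and stimulated through CD3 and CD28, with anti-CD28 at 1 µg/ml and 5% fetal calf serum in both cultures. The Th2 cultures held RPMI medium, anti-CD3 at 0.5 µg/ml, IL-4 at 50 ng/ml and anti-IFN-γ at 2.5 µg/ml. The Th17 cultures held IMDM medium, anti-CD3 at 0.25 µg/ml, TGFβ at 0.5 ng/ml, IL-6 at 20 ng/ml, and anti-IFN-γ and anti-IL-4 at 2.5 µg/ml each. Skewing cytokines, medium and anti-CD3 dose therefore cannot be told apart in any difference given here. Nothing in the labels ties the libraries to separate mice or separate cultures, and the p-values therefore measure only how these libraries spread. These are whole cultures in bulk: fewer cells of a type and less RNA per cell cannot be told apart.

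Th2 cells are the helper cells of responses to worms and of allergy. IL-4 acts through STAT6 to raise GATA3, the factor that opens the genes of the cytokines IL-4, IL-5 and IL-13. Th17 cells guard mucosal barriers against bacteria and fungi. TGFβ with IL-6 acts through STAT3 and leads to the nuclear receptor RORα, one of the factors that drive the cytokines IL-17A and IL-17F and the chemokine receptor CCR6.

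To show which sequences lie before the cytokine genes the comparison turns on, the 250 bases upstream of the start site are given for Il4 (chr11:53618666-53618915, minus strand), Il13 (chr11:53634703-53634952, minus strand), Il5 (chr11:53720544-53720793, plus strand), Il17a (chr1:20730655-20730904, plus strand) and Il17f (chr1:20784271-20784520, minus strand). They are from RefSeq on GRCm38.p6, 5′ to 3′ on the gene's strand. Capitals mark matches to AGATAA or AGATAG or TGATAA or TGATAG (the GATA motif), TTC followed by GAA after 4 bases of any kind (a STAT6 site) or after 3 (a STAT3 site), TGGAAA (the NFAT core) and AGGTCA (the ROR core), searched on both strands.
Il4: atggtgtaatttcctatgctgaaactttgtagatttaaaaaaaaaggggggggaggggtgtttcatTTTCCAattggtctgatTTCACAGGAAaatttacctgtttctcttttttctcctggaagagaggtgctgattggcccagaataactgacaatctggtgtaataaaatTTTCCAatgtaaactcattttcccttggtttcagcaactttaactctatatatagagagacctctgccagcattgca
Il13: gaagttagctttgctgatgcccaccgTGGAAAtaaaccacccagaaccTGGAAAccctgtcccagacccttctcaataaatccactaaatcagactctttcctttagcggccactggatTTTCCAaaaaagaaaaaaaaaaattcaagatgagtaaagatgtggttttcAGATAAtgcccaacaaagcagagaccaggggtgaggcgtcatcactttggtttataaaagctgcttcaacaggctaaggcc
Il5: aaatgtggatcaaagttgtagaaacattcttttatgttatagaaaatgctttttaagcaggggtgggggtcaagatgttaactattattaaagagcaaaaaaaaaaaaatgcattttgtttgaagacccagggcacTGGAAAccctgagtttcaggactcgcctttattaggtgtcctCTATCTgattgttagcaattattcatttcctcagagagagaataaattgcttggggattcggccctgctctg
Il17a: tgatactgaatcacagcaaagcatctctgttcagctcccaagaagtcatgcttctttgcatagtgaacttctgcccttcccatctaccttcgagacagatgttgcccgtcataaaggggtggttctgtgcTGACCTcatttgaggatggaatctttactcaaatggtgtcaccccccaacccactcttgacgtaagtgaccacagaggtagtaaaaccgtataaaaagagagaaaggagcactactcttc
Il17f: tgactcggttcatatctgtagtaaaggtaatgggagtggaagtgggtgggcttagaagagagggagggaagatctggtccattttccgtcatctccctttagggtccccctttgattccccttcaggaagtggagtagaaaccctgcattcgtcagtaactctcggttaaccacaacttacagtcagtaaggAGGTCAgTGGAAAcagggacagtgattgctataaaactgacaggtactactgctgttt

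Counted from the start site, the Il4 stretch held a STAT6 match at position -167 and NFAT cores at -184 and -77. The Il13 stretch held a GATA match at -81 and NFAT cores at -224, -202 and -131. A GATA match at -72 and an NFAT core at -114 lay before Il5. Before Il17a the search found a ROR core at -120, and before Il17f a ROR core at -58 next to an NFAT core at -51. Such short matches are common: of 32851 promoters of the same length, 26.5% held a GATA match, 5.85% a STAT6 match, 7.02% a STAT3 match, 18.6% an NFAT core and 14% a ROR core. Among promoters of genes higher in Th2 by more than 1 on the log2 scale, 23.1% held a GATA match, against 22.1% for genes higher in Th17 by as much and 17.2% over all tested genes. The ROR core was present in 12.9% of the Th2 promoters and in 12.1% of the Th17 promoters.

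Read depth was even, at 13417121 to 17774400 gene reads per library, of which 78.95 to 80.99% mapped uniquely and 2.28 to 4.16% fell in introns. Within a culture the libraries correlated at 0.972 to 0.989 across genes, and between cultures at 0.938 to 0.965. The first principal component held 54% of the variance and separated the cultures, and the second held 23.2% and separated the days. The T cell part of the label was checked against 16 T cell genes, all of them measured. Of these, 14 did not pass the test between cultures and 2 were higher in Th17, so 12.5% were called, beside 41.5% of all tested genes. Apart from Cd4, the 16 do not tell CD4 from CD8 T cells. Values of Cd8a and Cd8b1 are given below with the markers of other cell types. Cd4 read 547, 465, 550.0 and 451 CPM (counts scaled to a common library size) in Th2 and 729.8, 698, 766 and 706 CPM in Th17, so every Th17 library was above every Th2 library. The difference, Th2 minus Th17 on the log2 scale, was -0.53 ± 0.06 (SE, 4 libraries per culture; edgeR adjusted p = 9.81e-05), and Trac, which encodes the T cell receptor alpha constant region, differed by -0.30 (edgeR adjusted p = 0.00233). The Trac call was lost in 4 other settings. Cd3e differed by 0.16 and did not pass.

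Each gene was tested on its read counts with edgeR's quasi-likelihood test, comparing Th2 with Th17 within the 4 combinations of genotype and day, and p-values were adjusted by Benjamini-Hochberg over all 12415 genes tested. At an adjusted p under 0.05, 5152 genes (41.5%) were called: 2514 (20.2%) were higher in Th2 and 2638 (21.2%) were higher in Th17. Most of these differences were small. Only 1034 genes (8.33%) were called and differed by more than 1 on the log2 scale, with 601 (4.84%) higher in Th2 and 433 (3.49%) higher in Th17. All 4 values of one culture lay above all 4 of the other for 3008 genes (24.2%), of which 1468 (11.8%) were higher in Th2 and 1540 (12.4%) higher in Th17. The number called rests on the blocks: without them 2350 genes were called, and 1539 when the 4 Th1 libraries shared the fit.

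**Figure D1:**
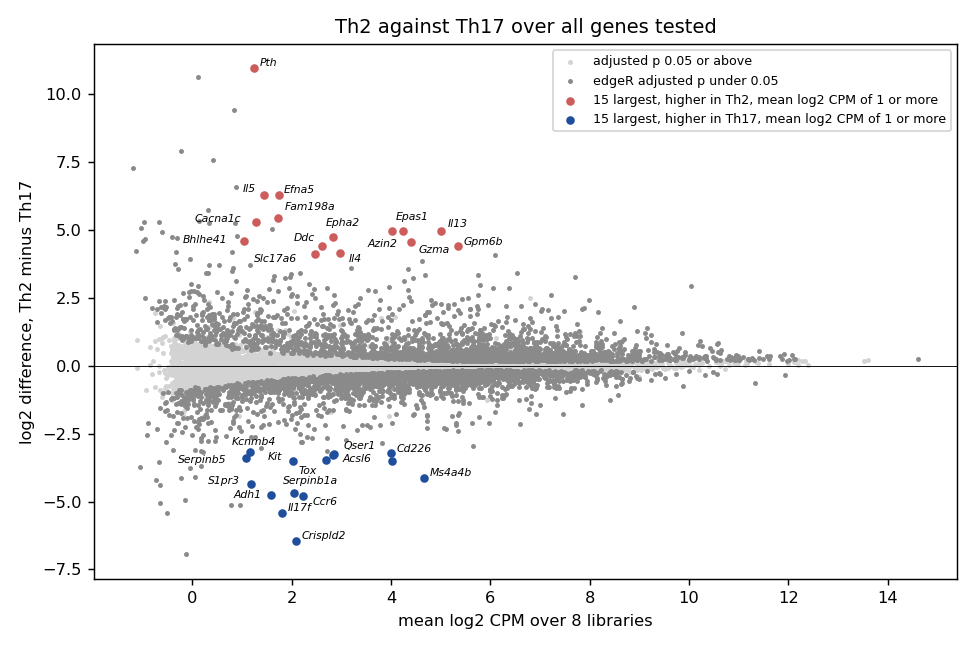
Each point is 1 of the 12415 genes tested, by its mean log2 CPM over the 8 libraries (x axis) and its log2 difference, Th2 minus Th17 (y axis). Dark grey points passed edgeR's test, and red and blue points are the 15 largest differences in each direction among genes with a mean log2 CPM of 1 or more; Pth lies highest at 10.94 and Crispld2 lowest of the labelled genes at -6.45.

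Among the lineage lists, the Th2 cytokine genes had the median difference farthest from 0. Of 10 listed genes, 6 could be tested: 4 were higher in Th2, 1 was higher in Th17 and 1 did not pass. Over all tested genes, 20.2% were higher in Th2 and 21.2% in Th17. The median log2 difference of the 6 was 3.86, against -0.03 over all genes. Il4, the cytokine of the Th2 culture itself, read 25.04, 44.8, 19.3 and 45.9 CPM in Th2 and 1.39, 2.83, 1.03 and 2.49 CPM in Th17. Its cultures did not overlap, and both read higher at day 3.5 in each genotype. The log2 difference was 4.13 ± 0.11 (SE; edgeR adjusted p = 3.96e-09).

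Il13, which acts on epithelium and smooth muscle, read 125, 398, 78.5 and 235 CPM in Th2 and 6.19, 12.5, 2.50 and 5.54 CPM in Th17. The lowest Th2 library was well above the highest Th17 library, at a log2 difference of 4.95 ± 0.16 (edgeR adjusted p = 9.3e-07). Il5, the eosinophil growth factor, was at 15.6, 46.7, 8.00 and 21.4 CPM in Th2 and at 0.139, 0.690, 0.220 and 0.152 CPM in Th17. Only traces of Il5 were thus found in Th17, and the log2 difference was 6.27 ± 0.20 (edgeR adjusted p = 1.36e-08); 52.2% of its reads mapped uniquely. For Il4, Il13 and Il5 alike, the Th2 value at day 3.5 was above that at day 2.5 in both genotypes.

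Il10, an inhibitory cytokine that several helper fates make, read 37.0, 74.9, 8.22 and 31.1 CPM in Th2 and 4.10, 2.97, 2.64 and 1.73 CPM in Th17. Again the cultures did not overlap, but the NFATc1/ΔS day 2.5 library of Th2 lay close to the Th17 range. Its log2 difference of 3.59 ± 0.53 passed (edgeR adjusted p = 0.0124), and the call was lost without the day 2.5 WT pair of libraries (edgeR adjusted p = 0.0543) or without the day 3.5 NFATc1/ΔS pair (0.0703). Il24, a cytokine of the IL-10 family, was at 171, 578, 109.7 and 419 CPM in Th2 and at 68.3, 62.1, 37.8 and 30.1 CPM in Th17. Every Th2 library exceeded every Th17 library, yet the test did not pass at a log2 difference of 2.48 ± 0.62 (edgeR adjusted p = 0.0537); the gap was far wider at day 3.5. One listed gene ran the other way: Il3, a growth factor of basophils and mast cells, read 2.17, 1.31, 2.18 and 1.17 CPM in Th2 and 11.4, 16.2, 10.6 and 10.3 CPM in Th17. All Th17 libraries were higher, by -2.82 ± 0.22 as Th2 minus Th17 (edgeR adjusted p = 9.52e-06). Il9, Areg, Il31 and Il25 had too few reads for a test.

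Of the 11 Th2 transcription factors tested, 8 were higher in Th2, none was higher in Th17 and 3 did not pass. Their median log2 difference was 1.68, and 20.2% of all tested genes were higher in Th2 and 21.2% in Th17. Gata3, the master factor of the fate (ENSMUSG00000015619, chromosome 2, 9857078 to 9890034 on GRCm38), read 551, 706, 598 and 729 CPM in Th2 and 68.0, 57.8, 75.6 and 70.7 CPM in Th17. The Th17 libraries kept a low but steady level, and the log2 difference was 3.24 ± 0.11 (edgeR adjusted p = 2.74e-07). Epas1, which encodes the hypoxia-inducible factor HIF-2α (ENSMUSG00000024140, chromosome 17, 86753700 to 86833410), was at 86.7, 142, 85.7 and 126 CPM in Th2 and at 5.07, 1.59, 4.85 and 2.69 CPM in Th17. Th2 values were higher and Th17 values lower at day 3.5 than at day 2.5. The log2 difference was 4.96 ± 0.45 (edgeR adjusted p = 0.0036). In the WT libraries alone it was no smaller, at 5.07, but did not pass (edgeR adjusted p = 0.0911).

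Nfil3, a basic leucine zipper factor, read 573, 504, 509 and 412 CPM in Th2 and 153, 90.1, 144 and 81.7 CPM in Th17. All Th2 libraries were higher, by 2.13 ± 0.12 (edgeR adjusted p = 1.05e-05). Pparg, a nuclear receptor for lipids, was at 37.7, 50.5, 37.2 and 42.8 CPM in Th2 and at 6.81, 15.4, 5.07 and 9.61 CPM in Th17. Its cultures did not overlap, and the log2 difference was 2.25 ± 0.17 (edgeR adjusted p = 0.000106). Bhlhe41, a transcriptional repressor, read 10.1, 5.94, 13.8 and 6.99 CPM in Th2 and less than 1 CPM in every Th17 library, a log2 difference of 4.58 ± 0.23. Cebpb (1.68 ± 0.11), Gfi1 (0.98 ± 0.08) and Rbpj (0.79 ± 0.10, with 31.6% of reads mapping uniquely) were also higher in Th2. Stat6, the signal transducer of IL-4, differed by 0.06, Notch1 by 0.08 and Ets1 by 0.15, and none of these passed.

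Receptors linked to the Th2 fate differed less. Of 12 listed, 9 were tested: 6 were higher in Th2, none was higher in Th17 and 3 did not pass. Their median log2 difference was 0.82, and 20.2% of all tested genes were higher in Th2 and 21.2% in Th17. Il4ra, the IL-4 receptor chain, read 887, 981, 879 and 962 CPM in Th2 and 382, 314, 358 and 353 CPM in Th17. The 4 values of each culture were close together, and the log2 difference was 1.40 ± 0.08 (edgeR adjusted p = 4.32e-07). Ccr8, a chemokine receptor, was at 121, 158, 125 and 155 CPM in Th2 and at 50.0, 38.3, 56.9 and 39.5 CPM in Th17. Th2 was higher throughout, by 1.61 ± 0.19 (edgeR adjusted p = 0.00236). Il1rl1, the receptor for IL-33, was higher by 1.84 ± 0.26 but stayed at or under 5.14 CPM in every library. Ccr4 was higher by 1.23 ± 0.12, the IL-2 receptor chains Il2ra by 0.82 ± 0.08 and Il2rb by 0.75 ± 0.06, while Crlf2, Cysltr1 and Il9r did not pass.

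**Figure D2:**
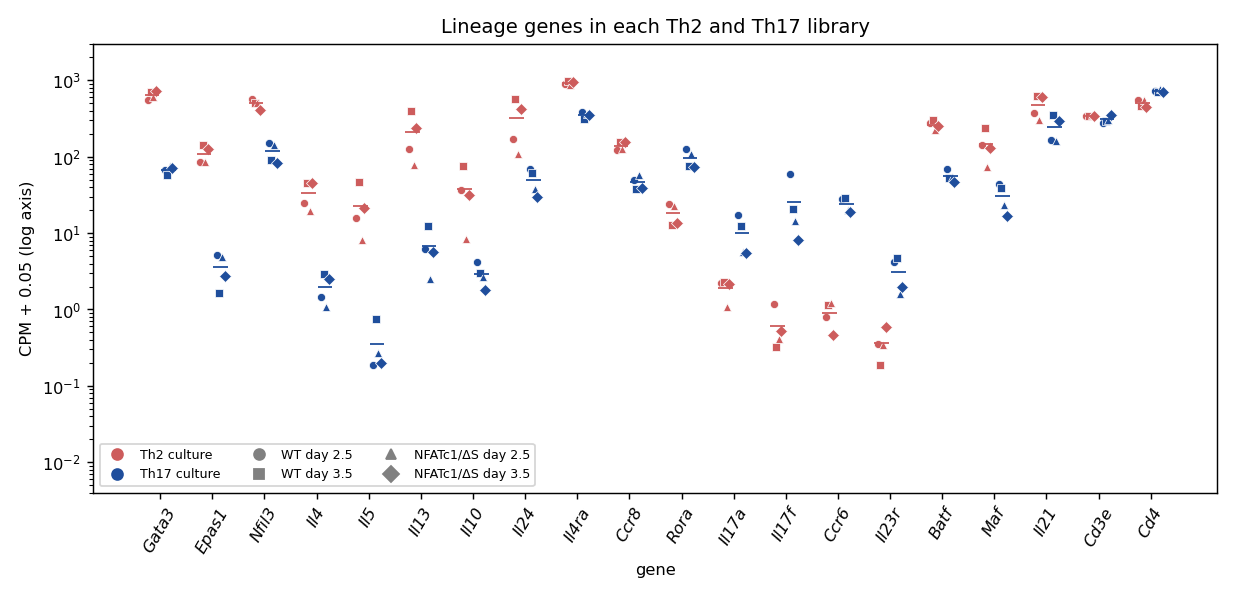
CPM plus 0.05 on a log axis (y axis) of cytokine, transcription factor, receptor and T cell genes (x axis) in each of the 8 libraries; points are libraries, coloured by culture and shaped by genotype and day, and short bars are culture means. Gata3, Il4, Il13 and Epas1 lie higher in all 4 Th2 libraries, and Rora, Il17f and Ccr6 in all 4 Th17 libraries.

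The Th17 cytokine list was split. Of 12 listed genes, 7 were tested: 4 were higher in Th17 and 2 were higher in Th2, with 1 that did not pass. Their median log2 difference was -1.18, and 21.2% of all tested genes were higher in Th17 and 20.2% in Th2. Il17f read 1.12, 0.276, 0.364 and 0.480 CPM in Th2 and 58.9, 20.6, 14.2 and 7.98 CPM in Th17. The Th17 values ran from the WT day 2.5 library downward to the NFATc1/ΔS day 3.5 library, yet all were far above Th2. The log2 difference was -5.43 ± 0.22 (edgeR adjusted p = 1.12e-07). Il17a was at 2.17, 2.21, 1.02 and 2.12 CPM in Th2 and at 17.2, 12.4, 5.58 and 5.44 CPM in Th17. Both NFATc1/ΔS libraries of Th17 were under both WT libraries, and the log2 difference between cultures was -2.33 ± 0.24 (edgeR adjusted p = 8.65e-05).

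Tgfb3, a TGFβ that Th17 cells make themselves, read 55.4, 17.1, 47.6 and 15.8 CPM in Th2 and 132, 46.4, 105 and 53.0 CPM in Th17. Across days the cultures overlapped, since both were lower at day 3.5. Within each genotype and day Th17 was higher, by -1.38 ± 0.09 as Th2 minus Th17 (edgeR adjusted p = 4.22e-06). The call was lost without the blocks (edgeR adjusted p = 0.0879) and with all 12 libraries (0.249), and 51.1% of the Tgfb3 reads mapped uniquely. Il21, a cytokine induced by IL-6 and STAT3, went the other way, at 374, 619, 306 and 611 CPM in Th2 and 165, 350.3, 160.4 and 292 CPM in Th17. It was higher in Th2 at each genotype and day, by 1.00 ± 0.07 (edgeR adjusted p = 2.53e-06), although the highest Th17 library was above the lowest Th2 library. The Il21 call was lost without the blocks (edgeR adjusted p = 0.0558) and with all 12 libraries (0.289). It was also lost when a log2 difference over 1 was required. Il1rn, the IL-1 receptor antagonist, was also higher in Th2, by 1.46 ± 0.45 at no more than 3.22 CPM (edgeR adjusted p = 0.0313), a call that was lost in 7 other settings. Il22 stayed at or under 1.18 CPM, and it and Ccl20 could not be tested.

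Transcription factors named for Th17 also fell on both sides: of 14 tested, 7 were higher in Th2, 4 were higher in Th17 and 3 did not pass. Their median log2 difference was 0.28, and 20.2% of all tested genes were higher in Th2 and 21.2% in Th17. The nuclear receptor gene Rora was among the 4 higher in Th17. It was at 24.1, 12.8, 22.6 and 13.5 CPM in Th2 and at 126, 75.4, 107 and 72.9 CPM in Th17. Both cultures were lower at day 3.5, and all 4 Th17 libraries were higher than every Th2 library, by -2.40 ± 0.07 (edgeR adjusted p = 7.42e-09). Nfkbiz, an inducible nuclear IκB protein (-0.90 ± 0.18), and Bhlhe40 (-0.76 ± 0.12) were also higher in Th17.

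Batf, an AP-1 factor needed for several helper fates, read 273, 307, 223 and 251 CPM in Th2 and 68.1, 52.0, 54.6 and 46.8 CPM in Th17. The cultures did not overlap, and the log2 difference was 2.25 ± 0.10 in favour of Th2 (edgeR adjusted p = 7.75e-07). Ikzf3, which encodes Aiolos, was at 144, 150.2, 123 and 121 CPM in Th2 and at 26.5, 15.2, 29.7 and 18.2 CPM in Th17. It too was higher in every Th2 library, by 2.62 ± 0.22 (edgeR adjusted p = 0.000795). Maf, the factor c-MAF, read 143, 235, 72.8 and 128 CPM in Th2 and 43.8, 39.3, 23.6 and 16.7 CPM in Th17. Its log2 difference was 2.22 ± 0.29 (edgeR adjusted p = 0.00722). In the NFATc1/ΔS libraries alone it was no smaller, at 2.305, but did not pass (edgeR adjusted p = 0.204). Hif1a (0.90 ± 0.07, with 22.0% of reads mapping uniquely), Irf4 (0.66 ± 0.08), Fosl2 (0.47) and Runx1 (0.19) were the other members higher in Th2, the last by a margin that did not pass in 11 other settings. Stat3, the signal transducer of IL-6, read 748, 465, 647 and 413 CPM in Th2 and 707, 503, 631 and 492 CPM in Th17. The cultures overlapped, and Stat3 at -0.06, Ahr at 0.36 and Sox5 at -0.01 did not pass.

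Of the 11 Th17 receptors tested among 13 listed, 5 were higher in Th17, 3 were higher in Th2 and 3 did not pass. Their median log2 difference was -0.06, and 21.2% of all tested genes were higher in Th17 and 20.2% in Th2. Ccr6, which guides Th17 cells to barrier tissue (ENSMUSG00000040899, chromosome 17, 8236043 to 8257141), read 0.750, 1.10, 1.16 and 0.411 CPM in Th2 and 27.8, 28.4, 20.0 and 19.1 CPM in Th17. The Th2 values were all far under the Th17 values, and the log2 difference was -4.79 ± 0.18 (edgeR adjusted p = 4.08e-08). Il23r, the IL-23 receptor, was at 0.300, 0.138, 0.291 and 0.548 CPM in Th2 and at 4.17, 4.62, 1.54 and 1.93 CPM in Th17. Both cultures were low, without overlap, and the log2 difference was -3.14 ± 0.44 (edgeR adjusted p = 0.00042). Il18r1 was higher in Th17 by -1.98 ± 0.18, and Il1r1 (-0.66 ± 0.21) and Il6st (-0.41 ± 0.11) passed narrowly: each lost the call in several other settings, among them leaving out the day 2.5 WT pair. On the other side, Tgfbr2 (0.83 ± 0.09), Il21r (0.60 ± 0.07) and Tgfbr1 (0.28) were higher in Th2. The Tgfbr1 call was lost in 4 other settings. Il6ra, the IL-6 receptor, differed by -0.06 and did not pass.

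The same comparison on the smaller set of reads that fall in introns, which come largely from unspliced RNA, tested 7137 genes and called 1416 (19.8%), with 835 (11.7%) higher in Th2 and 581 (8.14%) higher in Th17. Intron reads are part of the gene reads and so are no independent measure. Of the 3194 genes called on gene reads and tested on introns, 2741 (85.8%) had the same direction there. Intron reads of Gata3 differed by 3.89 ± 0.19, of Epas1 by 6.82 ± 0.50, of Il4 by 4.24 ± 0.19 and of Il13 by 4.78 ± 0.43, each on the log2 scale. For Ccr6 the intron difference was -4.32 ± 0.34. Il24, which missed the threshold on gene reads, passed on intron reads at 2.86 ± 0.33 (edgeR adjusted p = 0.000313).

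Neighbours of the cytokine genes were described over windows of 500 kb on each side, which were set after the values were known. Around Il13 (chromosome 11, 53631324 to 53634702), 11 of 17 tested genes, Il4, Il5 and Il13 among them, were higher in Th2 and none was higher in Th17, where 20.2% and 21.2% of all tested genes were. Rad50, a DNA repair gene that lies between Il13 and Il5 and harbours the locus control region of these cytokines, averaged 200.7 CPM in Th2 and 97.4 CPM in Th17, at 1.05 ± 0.06. On the other side of Il4, the kinesin gene Kif3a averaged 107.2 CPM in Th2 and 28.1 CPM in Th17 (1.91 ± 0.09, and 3.23 ± 0.17 on intron reads), and the septin gene Sept8 averaged 83.0 and 22.0 CPM (1.93 ± 0.08). Sowaha, at -154.4 kb from Il13, differed by 4.19 ± 0.43 at low levels of 2.56 and 0.137 CPM. Of the other genes in the window, Zcchc10 (0.44), P4ha2 (0.26), Hspa4 (0.23) and Irf1 (0.17) were called, and Aff4 (-0.02) and Slc22a21 (-0.62) were among those that were not. Past the edge of the window on the same chromosome, Il3 (54265303 to 54267277) and Acsl6 (54303798 to 54364756) were higher in Th17, by -2.82 and -3.30. Other genes past the edge were not counted, so these values hold for the window alone and not for the wider region.

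Around Il10 on chromosome 1, 6 of 10 tested genes were higher in Th2 and none was higher in Th17, Il10 included; the rest of the 6 lay between 0.36 and 0.80 on the log2 scale. Around Il17f, also on chromosome 1, 4 of 7 tested genes were higher in Th17: Il17f, Il17a, Paqr8 (-0.60) and Tram2 (-0.49). The replication gene Mcm3, in the same window, differed by 0.11 and did not pass. Around Gata3, 3 of 7 tested genes were higher in Th2 and 1 was higher in Th17. Besides Gata3 these were the noncoding RNA Gm13218 (5.74 ± 0.37) and Sfmbt2 (0.76), with Itih5 on the Th17 side (-1.14), while the nearer gene Taf3 differed by 0.05 and did not pass. Around Ccr6, 3 of 9 were higher in Th2 and 3 in Th17. These windows hold few genes, beside 20.2% and 21.2% called in each direction over all genes. The strand setting of the counting is not stated, so overlapping genes in these windows cannot be told apart.

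**Figure D3:**
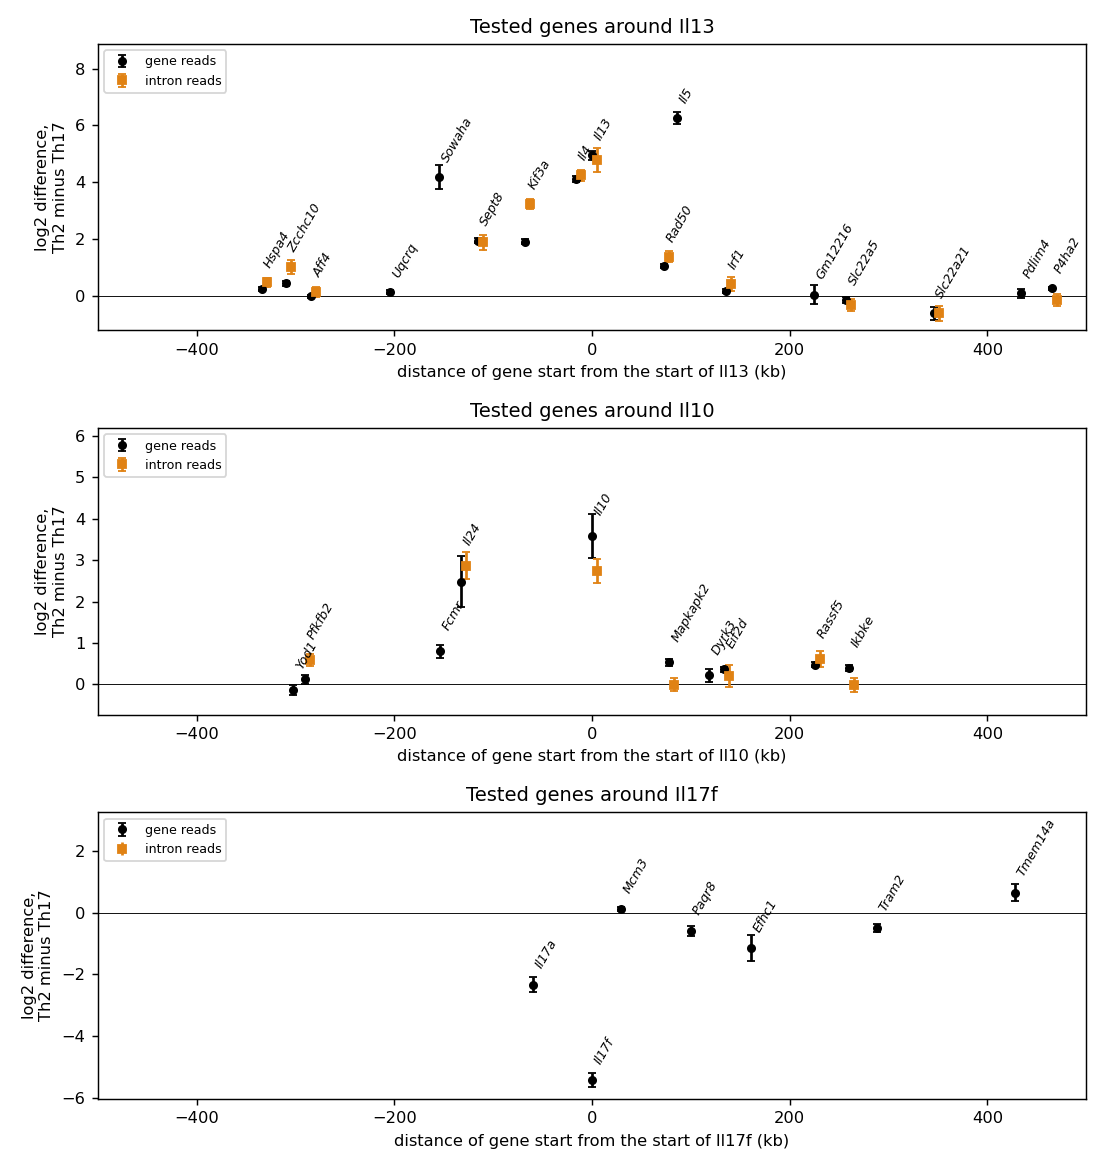
Log2 difference, Th2 minus Th17 (y axis), of the genes within 500 kb of Il13, Il10 and Il17f, by distance in kb (x axis). Black circles are gene reads and orange squares intron reads, drawn 5 kb to the right, with bars for 1 SE; in the first panel Il5 stands at 6.27, Il13 at 4.95, Sowaha at 4.19 and Il4 at 4.13, and in the third Il17f stands lowest at -5.43.

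The largest differences outside these lists were named by rule: the 15 largest called differences each way among genes of mean log2 CPM of 1 or more whose cultures did not overlap. Pth, the parathyroid hormone gene (chromosome 7, 113385580 to 113388570), read 43.1, 114, 13.6 and 27.6 CPM in Th2. In Th17 it had 1 read in all, in the WT day 3.5 library, against 2809 reads in Th2. The ratio of the pooled reads was 2837, with a 95% counting interval of 508.8 to 1.121e+05. That interval covers the counting of reads alone and not the spread between libraries. The log2 difference from edgeR's fit was 10.94. Efna5, an ephrin ligand, was at 18.5, 38.3, 15.9 and 35.5 CPM in Th2 and under 1 CPM in every Th17 library (6.29 ± 0.36; edgeR adjusted p = 3.66e-05). Its family's receptor gene Epha2 also stood higher in Th2 (4.73 ± 0.15).

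Azin2, a regulator of polyamine synthesis, read 57.5, 153, 52.3 and 126 CPM in Th2 and 2.29, 5.11, 1.84 and 3.25 CPM in Th17. The values were higher at day 3.5 in both cultures, and the log2 difference was 4.96 ± 0.10 (edgeR adjusted p = 5.74e-10). Gpm6b, a membrane glycoprotein gene, was at 174, 230.1, 139.5 and 215 CPM in Th2 and at 5.91, 11.3, 6.97 and 12.3 CPM in Th17 (4.39 ± 0.11). Gzma, a granule protease, read 175, 179.6, 62.8 and 49.1 CPM in Th2 and 7.71, 4.14, 4.99 and 2.19 CPM in Th17. Every Th2 library was higher, and within Th2 both WT libraries were above both NFATc1/ΔS libraries; the log2 difference was 4.55 ± 0.28 (edgeR adjusted p = 0.000346). The calcium channel gene Cacna1c (5.30 ± 0.24), Fam198a (5.45), the decarboxylase gene Ddc (4.39 ± 0.22) and the glutamate transporter gene Slc17a6 (4.09 ± 0.24) completed the Th2 side with Bhlhe41, Il4, Il5, Il13 and Epas1.

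On the Th17 side, Crispld2, a secreted protein gene, read 0.675, 0.345, 0.364 and 0.274 CPM in Th2 and 63.5, 33.1, 31.5 and 20.6 CPM in Th17 (-6.45 ± 0.13; edgeR adjusted p = 5.74e-10). Only 20.9% of its reads mapped uniquely, so its level is uncertain. Ms4a4b, a membrane protein gene of T cells, was at 8.40, 5.66, 5.96 and 4.38 CPM in Th2 and at 74.6, 108, 106 and 153 CPM in Th17. All Th17 libraries were higher, by -4.15 ± 0.34 (edgeR adjusted p = 0.00184). Kit, the stem cell factor receptor, read 2.62, 0.345, 2.40 and 0.548 CPM in Th2 and 35.2, 9.87, 18.7 and 4.57 CPM in Th17. Both cultures read lower at day 3.5, and the log2 difference was -3.52 ± 0.22 (edgeR adjusted p = 3.88e-06).

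Further genes of this group were S1pr3, a sphingosine 1-phosphate receptor (-4.36 ± 0.29), Serpinb1a, a protease inhibitor (-4.68 ± 0.28), and Cd226, an activating receptor (-3.23 ± 0.11). Tox, a nuclear factor of T cell development and exhaustion, differed by -3.47 ± 0.30, and Acsl6, an acyl-CoA synthetase gene, by -3.30 ± 0.37. Adh1, an alcohol dehydrogenase gene, differed by -4.76 ± 0.21 with 49.1% of its reads mapping uniquely.

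Lists of other T cell programmes were then counted, and each count stands beside a background of 20.2% of all tested genes higher in Th2 and 21.2% higher in Th17. Of 17 regulatory T cell genes tested, 7 were higher in Th2, 3 were higher in Th17 and 7 did not pass. Izumo1r (1.64 ± 0.07) and Gpr83 (1.72 ± 0.09) were higher in Th2. Nt5e, the ecto-enzyme CD73, read 5.85, 1.66, 4.95 and 2.19 CPM in Th2 and 30.2, 12.5, 36.5 and 16.2 CPM in Th17. It was higher in every Th17 library, by -2.73 ± 0.12 (edgeR adjusted p = 1.14e-07), as was Ikzf2, which encodes Helios (-1.23 ± 0.09, with 13.5% of reads mapping uniquely). Another pair of members were picked after their values were seen: Foxp3, the defining factor of regulatory T cells, differed by -0.24 and did not pass, and Tigit, an inhibitory receptor, was higher in Th2 by 2.96 ± 0.27.

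Of 19 Th1 genes, 9 were higher in Th17, 2 were higher in Th2 and 8 did not pass. Il12rb2 (-1.19 ± 0.07) and Stat4 (-1.03 ± 0.06), which carry the IL-12 signal, were higher in Th17. For Stat4, 55.3% of reads mapped uniquely. Il12rb1, the other chain of the IL-12 receptor, was higher in Th2 (0.76 ± 0.06). Among 12 follicular helper genes, 6 were higher in Th2 and 5 in Th17. Among 15 naive and memory genes, 7 were higher in Th17 and 4 in Th2; the kinase gene Txk differed by -2.84 ± 0.25 and the homing receptor gene Ccr7 by -0.49.

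Early response genes of the T cell receptor, the stimulus whose dose differed between cultures, moved in both directions: of 20 tested, 6 were higher in Th2, 6 were higher in Th17 and 8 did not pass, with a median log2 difference of -0.16. Nr4a3, an orphan nuclear receptor, read 18.2, 13.7, 25.2 and 16.8 CPM in Th2 and 123, 113, 186 and 148 CPM in Th17. No library of one culture reached the other, at -2.95 ± 0.08 (edgeR adjusted p = 4.04e-09). Its relative Nr4a1 was at 68.2, 53.7, 82.6 and 58.2 CPM in Th2 and at 226, 192, 242 and 236 CPM in Th17. It was higher in Th17 as well, by -1.78 ± 0.08 (edgeR adjusted p = 1.03e-07). Egr2, a zinc finger factor of the same response, read 26.7, 42.8, 29.8 and 59.3 CPM in Th2 and 7.92, 20.6, 10.7 and 25.9 CPM in Th17. All Th2 libraries were higher, by 1.34 ± 0.11 (edgeR adjusted p = 1.19e-05).

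Surface molecules also differed each way. Of 22 genes of the TNF and TNF receptor families, 10 were higher in Th17, 5 were higher in Th2 and 7 did not pass. Tnfrsf8, which encodes CD30, read 307, 420.5, 212 and 289 CPM in Th2 and 33.2, 32.2, 26.9 and 23.0 CPM in Th17. The Th2 libraries were all higher, by 3.39 ± 0.13 (edgeR adjusted p = 2.52e-06). Tnfsf11, the osteoclast factor RANKL, was at 9.82, 6.84, 6.69 and 7.81 CPM in Th2 and at 34.5, 41.0, 27.7 and 30.6 CPM in Th17. It was higher in Th17 (-2.10 ± 0.12; edgeR adjusted p = 1.09e-06), together with the death receptor gene Fas (-1.51 ± 0.08) and its ligand gene Fasl (-1.78).

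Among 17 genes of costimulation and inhibition, 7 were higher in Th2, 6 were higher in Th17 and 4 did not pass. Cd80, a costimulatory ligand best known from antigen-presenting cells, read 1.42, 3.04, 1.45 and 3.29 CPM in Th2 and 14.6, 28.9, 11.3 and 26.0 CPM in Th17 (-3.13 ± 0.12; edgeR adjusted p = 4.08e-08). Every Th17 library was higher, and both cultures read higher at day 3.5. Pdcd1lg2, an inhibitory ligand, was higher in Th2 (1.76 ± 0.13) and Cd96 in Th17 (-1.28). Of 15 chemokine and receptor genes, 4 were higher each way; Cxcr4 differed by 1.27 ± 0.07 and Ccl4 by -1.82. Of 19 adhesion and homing genes, 8 were higher in Th17, Itga4 among them (-1.08 ± 0.11), and 2 were higher in Th2.

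Response genes of TGFβ and IL-6, the cytokines added to the Th17 cultures, were called in both directions. No list of response genes of IL-4, the cytokine added to the Th2 cultures, was counted. Of 16 genes of the TGFβ response, 6 were higher in Th2, 4 were higher in Th17 and 6 did not pass, with a median of 0.14. Of 13 genes of the IL-6 and STAT3 response, 5 were higher in Th2, 3 were higher in Th17 and 5 did not pass, with a median of 0.04; Bcl6 differed by -1.17 ± 0.18, Osm by -0.53 and Pim1 by 0.50. Of 9 listed genes of the aryl hydrocarbon receptor response, only 2 could be tested. The target gene Tiparp was higher in Th2 (0.90 ± 0.09), and the receptor gene Ahr did not pass.

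Lists of metabolism and stress came next, beside the same background of 20.2% of all tested genes higher in Th2 and 21.2% higher in Th17. Of 19 genes of the endoplasmic reticulum and its unfolded protein response, 11 were higher in Th2, 3 were higher in Th17 and 5 did not pass, with a median of 0.57. Hspa5, the chaperone BiP, read between 798 and 913 CPM in Th2 and between 444 and 558 CPM in Th17. The cultures did not overlap, and the log2 difference was 0.81 ± 0.06 (edgeR adjusted p = 5.39e-06), near those of Calr (0.86 ± 0.07), Hyou1 (0.77 ± 0.06) and Pdia6 (0.72). Among 17 hypoxia response genes, 10 were higher in Th2 and 3 in Th17; Bnip3l differed by 1.12 ± 0.07 and Vegfa by 0.71 ± 0.06. Of 31 genes of sterol and fatty acid synthesis, 14 were higher in Th17, 1 was higher in Th2 and 16 did not pass. Sc5d differed by -0.78 ± 0.07, Hmgcs1 by -0.63 ± 0.08 and Mvd by -0.46 ± 0.06, the last with 30.8% of reads mapping uniquely.

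Ribosome biogenesis genes were shifted slightly: 12 of 23 were higher in Th17 and none in Th2, with differences between -0.44 and 0.08. Of 20 glycolysis genes, 14 did not pass, 5 were higher in Th2, Slc2a3 among them at 0.57, and 1 was higher in Th17. Among 29 genes of amino acid supply and ATF4, 8 were higher in Th2 and 9 in Th17. Of 27 replication genes 4 were higher in Th2 and 2 in Th17 (22.2% called), and of 25 mitosis genes 2 were higher in Th2 and 1 in Th17 (12.0% called), beside 41.5% over all genes. Of 21 interferon response genes, 6 were higher in Th2 and 4 in Th17. Usp18 differed by 1.37, with 50.2% of reads mapping uniquely. Zbp1 differed by -1.63, and Iigp1 by -2.57 at no more than 1.78 CPM in any library. Of 16 genes of the NRF2 and selenium response, 6 were higher in Th2 and 3 in Th17, with Hmox1 at 1.05 and Gclm at -0.96, the latter with 29.4% of reads mapping uniquely. Of 10 iron and heme genes, 4 were higher in Th2 and 1 in Th17, and of 13 mitochondrially encoded genes 1 was higher in Th2. Among 15 genes of the BCL2 and death pathways, 8 were higher in Th2 and 1 in Th17. Over all 40 lists, 283 of 527 tested members were called, beside 41.5% of all tested genes.

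**Figure D4:**
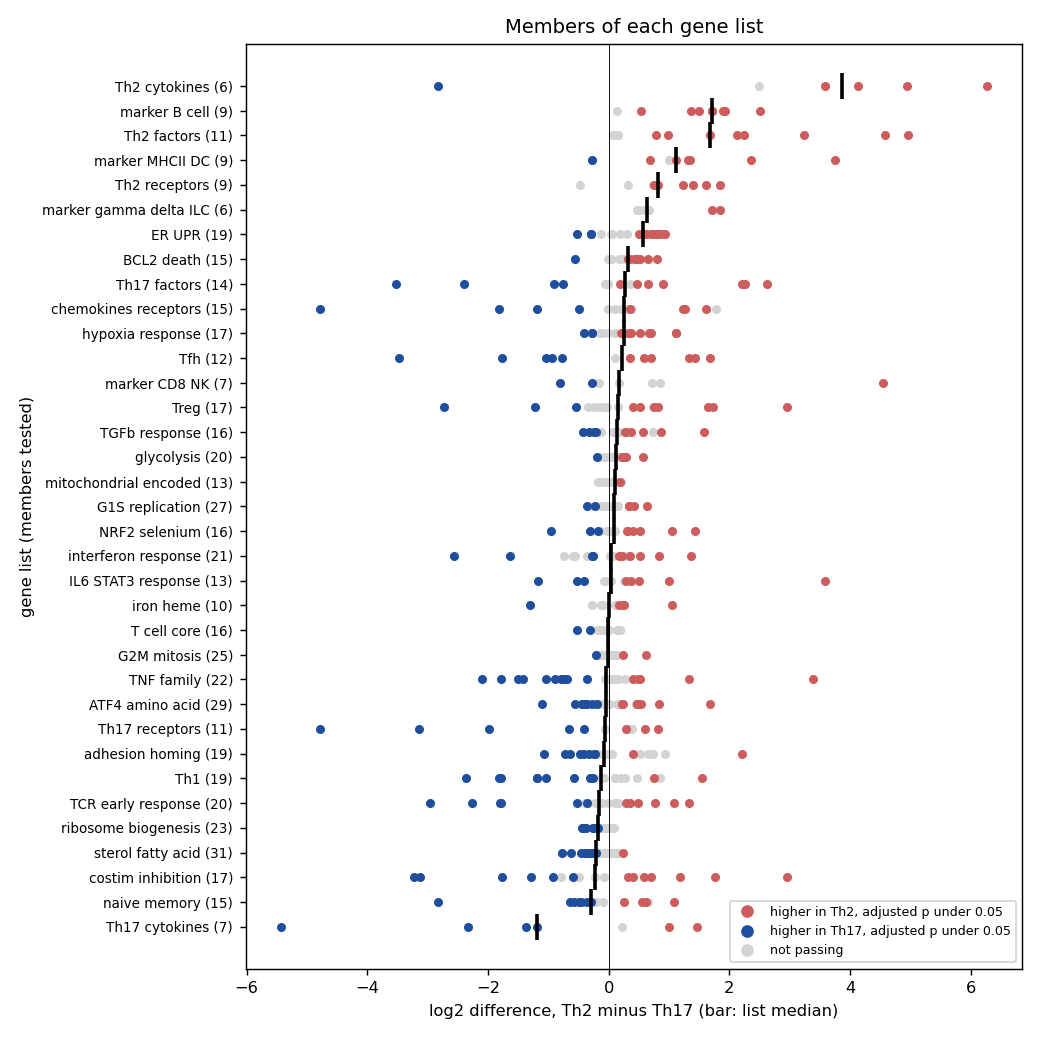
Log2 difference, Th2 minus Th17 (x axis), of each tested member of the gene lists with 6 or more tested members (y axis); points are genes and bars are list medians. Members that passed edgeR's test are coloured by the higher culture; the Th2 cytokine median stands at 3.86, the B cell marker median at 1.71, the Th2 factor median at 1.68 and the Th17 cytokine median at -1.18.

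Markers of other cell types differed between the cultures as well, and their part in the differences was not tested. The background for these counts was again 20.2% of all tested genes higher in Th2 and 21.2% higher in Th17. Of 9 B cell markers tested among 13, 8 were higher in Th2 and none in Th17, with sums of 85.1 to 125.6 CPM in Th2 and 44.1 to 87.7 CPM in Th17; Ighm averaged 61.7 CPM in Th2 and 43.0 CPM in Th17 (0.53 ± 0.06). Cd22 (1.93 ± 0.26), Pax5 (1.71 ± 0.27) and Cd79a (1.49 ± 0.21) were higher in every Th2 library at averages of 4.32 to 4.80 CPM, Ms4a1 stayed at or under 0.51 CPM, and Igkc was at 0. Of 9 markers of MHC class II and dendritic cells tested among 13, 6 were higher in Th2 and 1 in Th17, with sums of 448.1 to 664.3 and 371.6 to 562.4 CPM. H2-Ab1 averaged 215 CPM in Th2 and 134 CPM in Th17 (0.68 ± 0.07), and H2-Aa (2.36 ± 0.27), Flt3 (1.35 ± 0.27) and Itgax (3.75 ± 0.48) were higher in every Th2 library at low levels, while Siglech and Clec9a were at 0. CD8 and NK markers summed to 84.4 to 241.1 CPM in Th2 and 40.3 to 72.4 CPM in Th17, and 1 of 7 tested among 12 was higher in Th2 and 2 in Th17. The 1 was Gzma, which alone gave 49.1 to 179.6 CPM of the Th2 sum. The 2 were Cd8a (-0.81, at 5.18 to 18.1 CPM over the 8 libraries) and Cd8b1 (-0.27, at 17.7 to 28.6 CPM). Stromal and platelet markers summed to 106.8 to 136.4 CPM in Th2 and 42.9 to 46.9 CPM in Th17, with 1 of 3 tested among 9 higher in Th2. This was Pecam1 (1.45), which alone gave 102.2 to 131.9 CPM of the Th2 sum and 40.0 to 42.9 CPM of the Th17 sum. Itga2b (0.59) and Col1a1 (0.06) did not pass. Markers of γδ T cells and innate lymphoid cells summed to 12.3 to 18.9 and 6.5 to 8.6 CPM, with 2 of 6 tested among 9 higher in Th2. Mast cell and basophil markers summed to 2.7 to 5.1 CPM in Th2 and 7.7 to 37.5 CPM in Th17, where Kit alone gave 4.57 to 35.2 CPM; 1 of 2 tested among 11 was higher in Th17, and Mcpt8 and Fcer1a stayed at or under 0.14 CPM. Myeloid markers summed to 13.6 to 15.9 and 10.6 to 21.0 CPM (1 of 4 tested among 13 higher in Th2, 2 in Th17), and erythroid markers to 4.1 to 26.0 and 5.5 to 30.0 CPM (none of 3 tested among 9 higher in Th2, 1 in Th17).

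Whether the culture difference itself changed between days was tested as an interaction over the same 8 libraries. The labels give day 2.5 and day 3.5 for the samples, while the culture protocol speaks of 3 days of stimulation, and how these fit together is not stated. It was called for 193 genes (1.55%), with 118 (0.95%) rising toward Th2 and 75 (0.604%) falling. DESeq2 called 89, and leaving out 1 library gave 128 to 347. The culture difference was larger in size at day 3.5 for 144 of the 193 and at day 2.5 for 49, and 65 had opposite signs at the 2 days. The same split over all genes was not counted. Across all genes, too, the log2 differences spread more widely at day 3.5 than at day 2.5. Their SD was 0.794 against 0.734 in WT and 0.728 against 0.651 in NFATc1/ΔS. Among the lineage genes above, Epas1 went from a log2 difference of 4.08 at day 2.5 to 5.92 at day 3.5, a change of 1.82 ± 0.23 (edgeR adjusted p = 0.00107). Il24 went from 1.43 to 3.50, a change of 2.07 ± 0.13 (edgeR adjusted p = 1.37e-06), and Maf changed by 1.08 (0.00107). The differences of Ccr8 (0.80), Ikzf3 (0.76) and Nfil3 (0.55) also rose.

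Gbp2, an interferon-induced GTPase gene, read 73.5, 38.6, 80.9 and 40.6 CPM in Th2 and 28.1, 59.7, 38.3 and 63.0 CPM in Th17. Both genotypes showed the reversal: Th2 was higher at day 2.5 and Th17 at day 3.5. The difference went from 1.23 to -0.63, a change of -1.86 ± 0.14 (edgeR adjusted p = 1.58e-05), and the average over days did not pass. Lmna, a nuclear lamin gene, was at 28.3, 39.8, 28.3 and 32.5 CPM in Th2 and at 60.1, 30.7, 41.9 and 19.5 CPM in Th17. Its order reversed in the opposite sense, from -0.82 to 0.55 (1.38 ± 0.15). Zbtb32, a repressor that binds GATA3, read 10.3, 24.4, 8.14 and 23.7 CPM in Th2 and 81.5, 80.3, 82.1 and 71.7 CPM in Th17. It was higher in every Th17 library, and the gap narrowed from -3.14 to -1.65 (1.49 ± 0.15; edgeR adjusted p = 0.000223).

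Gsn, which encodes the actin-severing protein gelsolin, was at 174, 386, 208 and 389 CPM in Th2 and at 71.0, 55.8, 77.8 and 54.0 CPM in Th17. Its gap widened as Th2 was higher and Th17 lower at day 3.5 (a change of 1.47 ± 0.13). Cd83, an activation marker, read 68.8, 64.2, 49.7 and 43.4 CPM in Th2 and 31.5, 8.28, 21.1 and 5.29 CPM in Th17. Here the Th17 values were the ones far lower at day 3.5, and the difference changed by 1.81 ± 0.15 (edgeR adjusted p = 3.39e-05).

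**Figure D5:**
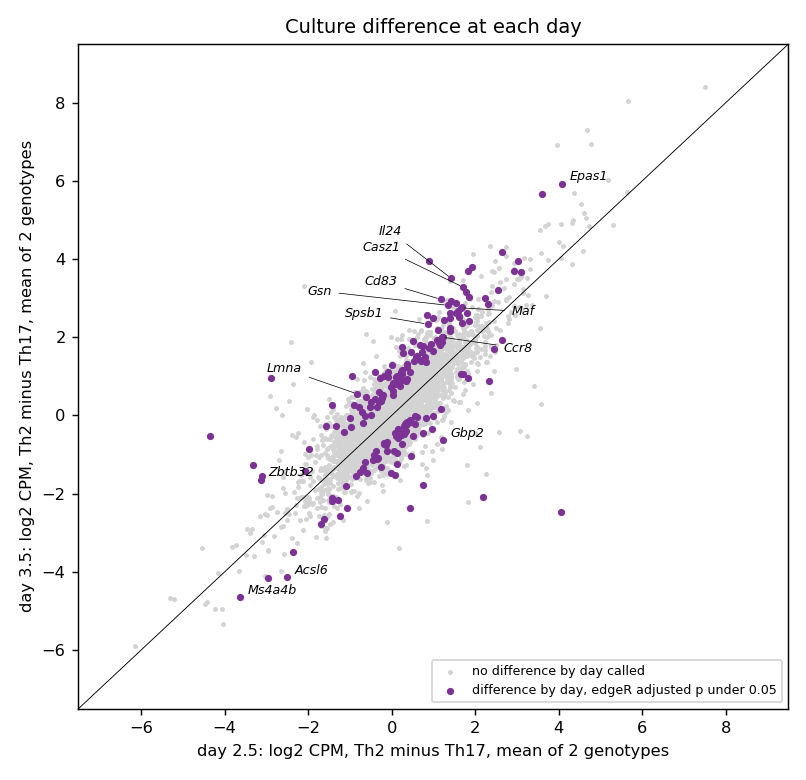
Log2 difference, Th2 minus Th17, at day 2.5 (x axis) and at day 3.5 (y axis) for each gene tested, as means of both genotypes; the line marks equal differences. Purple points are the 193 genes whose difference by day passed edgeR's test; Epas1 and Il24 lie above the line, and Gbp2 lies under it.

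The culture difference depended on genotype for 37 genes (0.298%), with 9 (0.0725%) rising and 28 (0.226%) falling in NFATc1/ΔS against WT. That count was unsteady: an additive fit called 5 genes, DESeq2 called 14, and leaving out 1 library gave 46 to 110. Capn11, a calpain protease gene, read 15.4, 14.9, 13.5 and 17.3 CPM in Th2 and 0.765, 2.07, 8.88 and 14.2 CPM in Th17. The Th2 libraries were alike, whereas in Th17 both NFATc1/ΔS libraries were above both WT libraries, and the difference changed by -3.02 ± 0.28 (edgeR adjusted p = 0.000314). Batf3, an AP-1 factor gene, was at 17.5, 42.4, 16.1 and 44.1 CPM in Th2 and at 14.2, 32.7, 4.92 and 12.5 CPM in Th17. Again Th2 was alike in both genotypes, and in Th17 the NFATc1/ΔS library was lower at each day (1.42 ± 0.17; edgeR adjusted p = 0.00266).

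Il1r2, the decoy receptor for IL-1, read 115, 156, 68.4 and 82.2 CPM in Th2 and 16.1, 18.1, 19.4 and 18.9 CPM in Th17. In this case Th17 was alike and both NFATc1/ΔS libraries of Th2 were lower than both WT libraries, a change of -0.99 ± 0.14 (edgeR adjusted p = 0.00996). Prf1, the pore-forming protein of cytotoxic granules, was at 25.3, 20.7, 12.2 and 7.67 CPM in Th2 and at 11.6, 6.14, 14.2 and 6.86 CPM in Th17. Its culture difference was smaller in NFATc1/ΔS, by -1.47 ± 0.21 (edgeR adjusted p = 0.0107). Gata3, Il4, Il13, Il17a, Il17f and Ccr6 were not called in either interaction; with 1 library at each culture, genotype and day, the counts of called interactions rest on few libraries.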

How the data were processed

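Poly(A) RNA libraries were made with an NEBNext Ultra II kit, per the labels' protocols. The authors deposited 1 table per library with read counts per gene; the build was GRCm38 per the submitters' processing notes, with the aligner and counter not given in the sources used here. Counts of gene, exon, intron and unique reads stand in separate columns, per the file headers; gene reads are exon plus intron reads and include reads that also map elsewhere. Depth was 13417121 to 17774400 gene reads per library, and the reads carry no molecular identifiers. The 4 Th1 libraries entered only an alternative.

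Tests used edgeR 4.0.16 (R 4.3.3). Genes of few reads were removed by filterByExpr with a min.count of 10 and a min.total.count of 15, libraries were scaled by TMM, the quasi-likelihood fit was robust, and genes were called at a Benjamini-Hochberg adjusted p under 0.05. The design held 4 blocks of genotype by day, each with 1 Th2 and 1 Th17 library, so the pairing comes from the labels' genotype and day. Interactions of culture with day and with genotype used the same libraries. A standard error is the absolute log2 difference divided by the square root of F. CPM used TMM-scaled library sizes, and log2 CPM a prior count of 2. On simulated counts for 12300 genes of the Th2 against Th17 comparison, 63 of 68 genes changed by 0.5 on the log2 scale and 66 of 66 changed by 1 were recovered, with 8 false calls. The simulation gave every gene the same dispersion and changed only a small set of well-read genes. These rates therefore need not hold for the real calls, where spread differs between genes.

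The members, lists and tests were chosen with earlier results of these data known. Genes were named by rule: lineage list members with enough reads, the 15 largest called differences each way without overlap (mean log2 CPM of at least 1), up to 8 of smallest p per interaction, up to 4 of smallest p per other list, and T cell genes. Some genes that the rule names are not reported here but remain in all tests and counts. Promoters were matched to RefSeq by symbol for 9492 of the 12415 genes tested. Alternatives were RLE and upper-quartile factors, DESeq2 1.42.0, limma-voom 3.58.1, other read filters and counts, no robust fit, no blocks, glmTreat, all 12 libraries, each genotype or day alone, and left-out libraries. Python 3.11.15 and pandas 2.3.3 prepared the tables.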

Additional observations from a re-analysis of the deposited data

Results flagged for a closer look

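The highest or lowest of the 4 libraries of a culture stood apart from the rest (by the 95% critical value of Dixon's ratio) in 7 of 224 groups looked at. That value flags about 5% of groups of like replicates. These 4 libraries differ in genotype and day, so the count cannot be set against that rate. Among the 7 flagged was the single Pth read of Th17, 0.07 CPM in the WT day 3.5 library. In Th17, Cd226 was lowest in the WT day 2.5 library at 40.9 CPM, and Zbtb32 was lowest in the NFATc1/ΔS day 3.5 library at 71.7 CPM. In Th2, the NFATc1/ΔS day 2.5 library was the lowest for Il17a, at 1.02 CPM, and for Lif, at 211 CPM. The WT day 3.5 library of Th17 was the highest for Ccr2, at 4.76 CPM, and for Ccl4, at 4.0 CPM.

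The culture difference, Th2 minus Th17, differed between days by edgeR's interaction test for these named genes, given as day 3.5 minus day 2.5 on the log2 scale. It was higher at day 3.5 for Il24 (2.07), Epas1 (1.82), Cd83 (1.81), Casz1 (1.58), Zbtb32 (1.49), Spsb1 (1.47), Gsn (1.47), Lmna (1.38), Maf (1.08), Cysltr1 (0.92), Ccr8 (0.80), Ikzf3 (0.76) and Nfil3 (0.55). It was lower at day 3.5 for Gbp2 (-1.86), Acsl6 (-1.68), Tox (-1.31) and Ms4a4b (-1.05).

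Between genotypes, given as NFATc1/ΔS minus WT, the culture difference was higher in NFATc1/ΔS for Batf3 (1.42), Akr1c18 (1.10) and Dennd5a (0.81). It was lower for Fmo1 (-3.17), Capn11 (-3.02), Sgip1 (-1.53), Prf1 (-1.47), Il1r2 (-0.99) and Ms4a4b (-0.94). Only 0.45% of the Fmo1 reads and 17.1% of the Sgip1 reads mapped uniquely, so these genes are uncertain.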

How the results depend on the processing

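Of 17 other settings of the Th2 against Th17 comparison, 12 kept the count of called genes within 1.5 times of 5152. The exceptions were the fit with no replicate block (2350 genes, 2333 of them among the 5152), all 12 libraries (1539, of which 1503 were among them), the WT libraries alone (2873), the NFATc1/ΔS libraries alone (2929) and a required log2 difference over 1 by glmTreat (394). Gene list members called fell from 283 to 142 without the block, to 114 with all 12 libraries and to 52 with glmTreat. Leaving out 1 pair at a time gave 3987 to 4361 called genes, 244 to 260 list members and 957 to 1153 genes on intron reads, where the fit with no replicate block gave 649. Differences by day numbered 89 with DESeq2, and 128 to 347 when 1 library was left out. Without Th17 WT day 2.5 there were 128, and 311, 298 and 347 without Th2 WT day 3.5, Th2 NFATc1/ΔS day 3.5 and Th17 NFATc1/ΔS day 3.5. Differences by genotype numbered 5 in an additive fit, 14 with DESeq2, 17 without robust fitting and 46 to 110 with 1 library left out, where 6 of the 8 omissions gave more than 1.5 times the 37 of the full fit. The cause of these shifts was not tested. At day 3.5 alone, the differences of Gbp2 (-0.62) and Lmna (0.57) had the opposite sign to their averages over days, which did not pass. Upper-quartile factors moved the share of called genes higher in Th2 from 48.8% to 42.6%, and DESeq2 to 56.8%. With 1 library per culture, genotype and day, the only replicate error of the main test was how the culture difference varied among the 4 blocks. Changes of that difference with day or genotype were counted as error there. The interaction tests instead took as error what culture, genotype within culture and day within culture left over. Genes of few reads, such as Il22, could not be tested.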
